A study of Mus musculus with 6 samples.

Results

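The 9 genes described here encode the 4 pore-forming subunits of the AMPA receptor (Gria1, Gria2, Gria3 and Gria4) and 5 transmembrane AMPA receptor regulatory proteins, or TARPs (Cacng2, Cacng3, Cacng4, Cacng5 and Cacng8). They were chosen by gene symbol, 9 of the 32285 genes in the matrix, and every one of them was detected. The measurements come from single-nucleus RNA sequencing, in which nuclei rather than whole cells are captured in droplets and each RNA molecule is counted once through a unique molecular identifier (UMI). The study asked which cell types of the forebrain respond early to loss of Npc1, the transporter that moves unesterified cholesterol out of lysosomes. It sequenced forebrain nuclei of 3 wild-type (WT) mice and 3 Npc1-/- littermates at postnatal day 16, all of them F1 hybrids of the BALB/cJ and C57BL6/J strains. The mutants are homozygous for the null allele Npc1nih in the whole body, so that neurons, glia and vessels all lack the protein. All 6 libraries stand in 1 matrix and are told apart by a number from 1 to 6 at the end of each barcode. The labels used here do not tie these numbers to mice, so the libraries are named by number, the genotypes were not compared, and every statement below is about cell classes across the 6 libraries.

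AMPA receptors carry most fast excitatory transmission in the brain. They assemble as tetramers of GRIA subunits, and the subunits present set the kinetics of the channel and its permeability to calcium, which is low where an edited GRIA2 subunit is included. TARPs are auxiliary subunits, many of which bring the receptor to the cell surface, hold it at synapses and slow its closing. Oligodendrocyte progenitor cells (OPCs) receive synaptic input from axons through AMPA receptors, and astrocytes express them as well.

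A pair of short coding stretches is shown because each bears on a known property of the members, the calcium permeability of the receptor and the binding of TARPs to scaffolds. The pore of each subunit contains the position known as the Q/R site. In Gria2 RNA an adenosine of this codon is deaminated by ADAR2 (gene Adarb1), which turns a glutamine into an arginine, while the other 3 genes keep a glutamine. The counts record how many Gria2 molecules were seen and not whether they were edited. The 51 bases of the coding strand around that codon, with the codon in capitals, read as follows in the genome annotation (GENCODE M21, GRCm38).
Gria1: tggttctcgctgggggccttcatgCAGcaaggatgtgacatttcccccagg
Gria2: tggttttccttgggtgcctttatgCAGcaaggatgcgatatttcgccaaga
Gria3: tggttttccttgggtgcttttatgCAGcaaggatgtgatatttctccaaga
Gria4: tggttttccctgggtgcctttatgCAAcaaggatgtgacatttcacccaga
The codon is number 600 of the coding sequence in Gria1 (chr11:57243094-57243096, plus strand), 607 in Gria2 (chr3:80706911-80706913, minus strand), 612 in Gria3 (chrX:41610265-41610267, plus strand) and 608 in Gria4 (chr9:4464137-4464139, minus strand). It lies in exon 11 in all 4 genes, and the stretch runs on into exon 12. The unedited genomic codon is CAG in Gria1, Gria2 and Gria3 and CAA in Gria4, both of which code for glutamine. Gria2 and Gria3 were the most alike over this stretch, with 48 of 51 bases identical, and Gria1 differed most, with 41 of 51 identical to Gria2 and to Gria3.

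The type I TARPs (Cacng2, Cacng3, Cacng4 and Cacng8) end in a motif that binds PDZ domains of synaptic scaffolds such as PSD-95, and the type II TARP Cacng5 does not share it. The last 10 codons before the stop are shown with the last 4 in capitals.
Cacng2: aacacagccaaccgccggACCACGCCCGTA
Cacng3: aatccggccaacagacgtACCACGCCTGTC
Cacng4: agcatgctgaaccggcggACGACTCCCGTG
Cacng5: gactatgaccagatgtcaTCATCTCCCTGC
Cacng8: aacacgctcaacaggaaaACCACGCCCGTG
These 30 bases lie at chr15:77995152-77995181 on the minus strand for Cacng2, chr7:122768814-122768843 on the plus strand for Cacng3, chr11:107734783-107734812 on the minus strand for Cacng4, chr11:107877355-107877384 on the minus strand for Cacng5 and chr7:3415573-3415602 on the plus strand for Cacng8. The last 4 codons of Cacng3, Cacng4 and Cacng8 code for the same 4 residues as those of Cacng2, although they differ in 1 to 3 of 12 bases, whereas Cacng5 matches Cacng2 in 1 of 4 residues.

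The genes themselves span chr11:57011387-57330244 (Gria1), chr3:80681450-80802835 (Gria2), chrX:41400854-41678601 (Gria3), chr9:4417896-4796234 (Gria4), chr15:77991748-78120028 (Cacng2), chr7:122670492-122769393 (Cacng3), chr11:107732357-107794557 (Cacng4), chr11:107874605-107915055 (Cacng5) and chr7:3390683-3415648 (Cacng8) in the same annotation. No protein-coding gene overlaps any of them. Gria2, Gria3, Gria4 and Cacng8 overlap an annotated non-coding RNA gene on the same strand, Cacng2, Cacng3, Cacng4 and again Cacng8 one on the other strand, and no source used here says how reads shared with those genes were counted. Gene length differs among the members, so levels are followed across classes for each gene and not ranked between genes.

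The libraries held 8217 to 16118 barcodes each, with a median of 4469 to 5439 UMIs per barcode and 497750379 UMIs in all. After removal of 11 barcodes at or above 10% mitochondrial UMIs and 8007 of highest doublet score, 67860 nuclei remained in 41 clusters. Markers placed 27 clusters in 23 classes that hold 69.38% of these nuclei. Class names mean that the nuclei resemble that type (OPC-like, thalamic-like and so on), and the 30.62% of nuclei in unnamed clusters stay out of the class comparisons. The members and the other glutamate receptor genes were left out of the clustering, so no member helped to define a class. Shares of the classes differed between libraries, with mature oligodendrocytes at 4.26%, 4.27%, 1.01%, 1.24%, 3.69% and 0.951% of the nuclei in libraries 1 to 6. Endothelial nuclei made up 4.65% to 5.28% in libraries 1 to 4 and 1.80% and 1.59% in libraries 5 and 6. Neuroblasts ranged from 1.32% to 2.28% in 5 libraries against 5.83% in library 3.

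Levels are given as UMIs of the gene scaled to 1000000 UMIs of the class (CPM), summed over the libraries, with the lowest, median and highest library beside those that matter. Square brackets after a level or a ratio hold its exact 95% interval, which covers counting error only and is mostly narrower than the spread over libraries. Free RNA in droplets can give UMIs of neuronal genes to any nucleus. Endothelial and microglial nuclei therefore serve as the reading of other cells, and their levels are set beside glial ones, although any expression of their own is included in that reading. Fewer transcripts per nucleus and fewer nuclei that express a gene cannot be told apart in these sums. Library 4 had the highest endothelial reading of Gria1 at 493 CPM, against 307 over all libraries, and the highest microglial one at 833 against 488. The part of free RNA in the levels below was not tested.

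Gria1, the subunit that is best known for its insertion into synapses during plasticity, was highest in hippocampal pyramidal neurons at 3556 CPM [3523 to 3588] (lowest 3124, median 3597, highest 3908). Dentate granule neurons followed at 2919.6 CPM (lowest 2584, median 2915, highest 3257), then Lhx6 interneurons, the class that holds the Sst and Pvalb types, at 2661 (lowest 2499.7, median 2643, highest 2897). Hippocampal pyramidal neurons stood above dentate granule neurons in all 6 libraries and the latter above Lhx6 interneurons in 5. The neuroblast class was named from markers such as Dcx, Sox11 and Dlx2, and whether its cells were migrating was not tested. Neuroblasts had 1722 CPM and striatal projection neurons 1704, an order that held in 4 libraries. Below them came caudal interneurons (1381), upper-layer cortical (931) and layer 6 corticothalamic neurons (811), each above the next in 6 libraries. These 8 classes were the only ones of 23 above both endothelial and microglial nuclei in every library. Astrocytes (529), layer 5 (521), Rorb cortical (490.5) and thalamic neurons (423) and OPCs (389.9) lay near the microglial 488 CPM in the sum. The median library of microglia was lower, at 325 CPM (lowest 236, highest 833). The median libraries of those classes, in the same order, were 479, 514, 471, 412 and 344. Rorb cortical neurons were above microglia in 5 of 6 libraries, and microglia were above thalamic neurons in 2. Mature oligodendrocytes were lowest at 172, a 20.7-fold range over the classes.

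Gria2, the subunit that makes receptors poorly permeable to calcium, was the most even of the 9 genes, with a 4.69-fold range. Immature oligodendrocytes had the highest summed level at 1898 CPM [1865 to 1931] and library values of 1784, 1758, 1956, 2030.2, 1801 and 2444 in libraries 1 to 6. Hippocampal pyramidal neurons had 1832 CPM (lowest 1749, median 1824, highest 1996), and the immature oligodendrocytes were above them in 3 of 6 libraries, so that the order of these classes was not fixed beyond the spread. Dentate granule neurons (1539.6), dividing progenitors (1508), OPCs (1479) and layer 6 corticothalamic neurons (1473) did not separate from one another, each exceeding the next in 3 libraries. Astrocytes had 1416 CPM, within a range of 1370.3 to 1560.0. Striatal projection neurons (1330.0), neuroblasts (1288), upper-layer (1278), Rorb (1200.2) and layer 5 neurons (1150.2) completed the 12 classes above both references in every library. Lhx6 interneurons (944) and caudal interneurons (943) were not above microglia (867; library range 645 to 1092) in every library. Among neurons thalamic ones were lowest at 617 CPM (lowest 586, median 595, highest 712). Endothelial nuclei had 643 in the sum but a median library of 552, and thalamic neurons were above them in 4 of 6 libraries, so that the 2 classes were not separated.

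Gria3, an X-linked subunit, was highest in upper-layer cortical neurons at 1149.9 CPM [1139 to 1161] (lowest 1035, median 1175, highest 1233) and in layer 6 corticothalamic neurons at 1076 (lowest 984, median 1063, highest 1148). Layer 6 neurons stood above Lhx6 interneurons (748) in all libraries, and hippocampal pyramidal (704) and striatal neurons (636) came next, each above its follower in 6 libraries. OPCs had 554 CPM (lowest 500.2, median 547, highest 589), dividing progenitors 517 and dentate granule neurons 512. Those 8 classes were above both references throughout. Neuroblasts, caudal interneurons, Rorb and layer 5 cortical neurons and thalamic neurons all had summed levels between 382 and 389 CPM, against 359 in microglia, and each was above microglia in 5 of 6 libraries. The median library of the neuroblasts was 317 CPM and library 3 their highest at 465, the 1 library of 6 in which they were above caudal interneurons. Immature oligodendrocytes (357) were likewise above microglia in 5 libraries, whereas astrocytes (232) and mature oligodendrocytes (149.7, the lowest class) were below them in all 6.

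Gria4, which gives fast-closing receptors, followed another order. It was highest in Lhx6 interneurons at 1914 CPM [1893 to 1935] (lowest 1704, median 1955, highest 2088), then in layer 5 cortical neurons at 1694 (lowest 1439, median 1706, highest 1983) and in thalamic neurons at 1409.9 (lowest 1279.6, median 1429, highest 1507), with each of the first 2 classes above the next in 6 libraries. Rorb cortical neurons, named for a gene best known from layer 4, had 1402 CPM and could not be told from thalamic neurons by their libraries. Caudal interneurons (1306), neuroblasts (1044) and dividing progenitors (1008) followed by their summed levels. Neuroblasts were above dividing progenitors in 1 of 6 libraries, library 3, which held most neuroblasts by share, and their median library was 878 CPM against 1033. Immature oligodendrocytes (862; lowest 828, median 864, highest 917) and OPCs (859.9; lowest 809, median 863, highest 976) were equal within their spread and lay above upper-layer (744), striatal (616) and layer 6 neurons (603). These were the 12 classes above both references. The 2 classes highest for Gria1 were near the bottom for Gria4, at 321 CPM in hippocampal pyramidal and 321 in dentate granule neurons. Microglia had 388 in the sum with libraries from 230.5 to 576, and the median libraries of the 3 classes were 313, 304 and 301, so that neither class was separated from microglia. Astrocytes had 245 CPM, less than microglia in all 6 libraries.

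**Figure D1:**
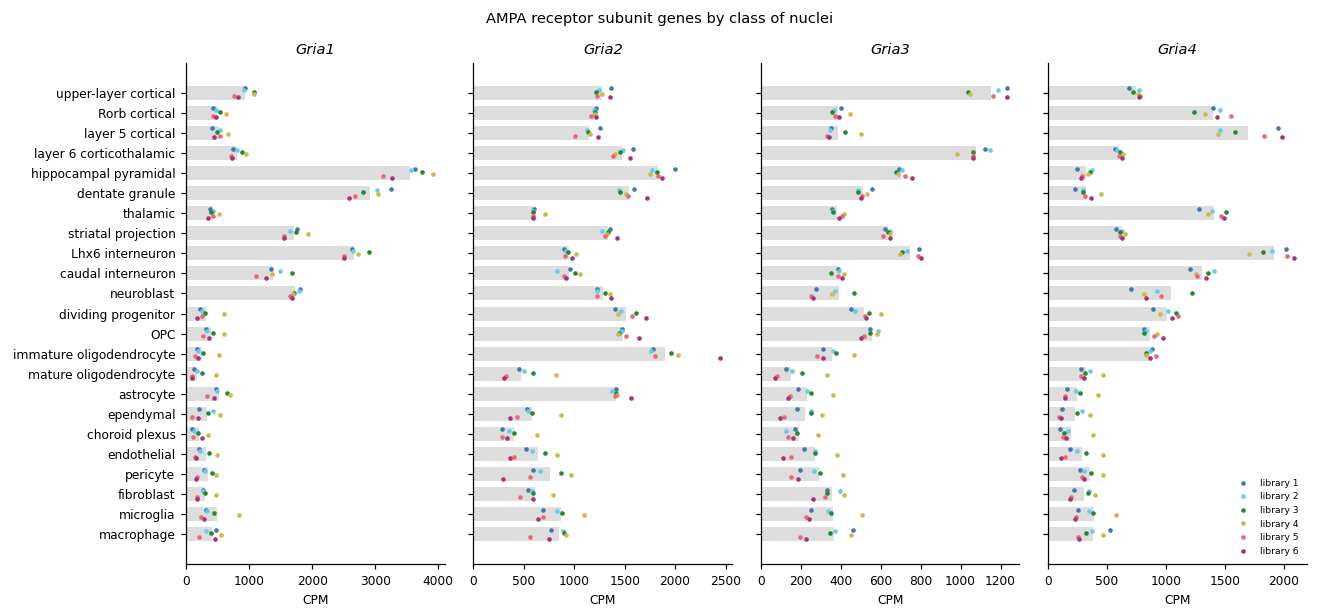
Levels of the 4 Gria genes in the 23 classes, in CPM on a linear axis that starts at 0, with a bar for the value summed over libraries and 1 coloured dot per library. Gria1 peaked in hippocampal pyramidal neurons (3556 CPM), Gria3 in upper-layer cortical neurons (1149.9) and Gria4 in Lhx6 interneurons (1914), whereas Gria2 spread over neurons, OPCs, immature oligodendrocytes and astrocytes.

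Cacng2, or stargazin, is the TARP whose loss gives the stargazer mouse. Its highest levels were all in neurons, at 191 CPM [184 to 197] in Lhx6 interneurons (lowest 149, median 193, highest 206), 163 in Rorb cortical neurons and 157 in caudal interneurons. Layer 5 (131), upper-layer (126) and thalamic neurons (123) came next, and none of these first 5 classes exceeded the one after it in all libraries. Layer 6 neurons (107), neuroblasts (95.3), striatal (92.0) and hippocampal pyramidal neurons (54.7) were also above both references in 6 libraries. The hippocampal class was not uniform, with 97.3 CPM in its cluster 27 (461 nuclei) and 27.7 in cluster 23 (838 nuclei), the latter below both references. In the glia Cacng2 was above each reference in at most 2 libraries. OPCs had 29.3, immature oligodendrocytes 27.8, mature oligodendrocytes 20.9 and astrocytes 31.0 CPM, against 38.4 in endothelial and 43.0 in microglial nuclei.

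Cacng3 was highest in upper-layer cortical neurons at 418 CPM [412 to 425] (lowest 399, median 421, highest 436). Striatal projection (220.1) and Rorb cortical neurons (207) followed, the former above the latter in 5 of 6 libraries. Layer 6 (108), neuroblasts (107), Lhx6 interneurons (104), dentate granule (95.2) and caudal interneurons (77.4) made up the rest of the 8 classes above both references. Within the cortex it thus differed by layer class, with layer 5 neurons at 68.2 CPM. These could not be told from microglia (72.6), being above them in 3 of 6 libraries with a median library of 68.9 against 56.7. All glial classes of the oligodendrocyte lineage and the astrocytes were between 28.8 and 47.8 CPM, each above the endothelial level (53.0) in 1 of 6 libraries.

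Cacng4 had the widest range of the 9 genes, 77.4-fold, and was the one whose highest classes were all in the oligodendrocyte lineage or dividing. OPCs had 608 CPM [594 to 622], with 597, 613, 609, 549.7, 629 and 703 in libraries 1 to 6. Dividing progenitors had 447 CPM (lowest 353, median 438, highest 606) and immature oligodendrocytes 206 (lowest 123, median 208, highest 306). Each of these 3 classes stood above the next in all 6 libraries. Among neurons it was highest in striatal projection neurons (116; lowest 102, median 113, highest 132), neuroblasts (97.1), thalamic neurons (82.3) and caudal interneurons (50.5). Astrocytes had 59.3 CPM, fibroblasts 54.8 and ependymal cells 46.3, all above both references (20.3 endothelial, 28.7 microglial). Hippocampal pyramidal (7.86) and Rorb cortical neurons (9.26) were below the endothelial level in all 6 libraries. Layer 6 (13.5) and upper-layer neurons (14.9) were above it in 1 and 2 libraries, and layer 5 neurons (19.2) were level with it, at a median library of 18.4 in both.

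Cacng5, a type II TARP, was highest in neuroblasts and thalamic neurons. Neuroblasts had 66.6 CPM [60.9 to 72.7] (lowest 55.9, median 61.8, highest 71.6) and thalamic neurons 35.4 (lowest 27.8, median 36.6, highest 41.2), and each of these stood above the next class in 6 libraries. Dentate granule neurons (17.4), caudal interneurons (11.5) and striatal neurons (9.57) were the other classes above both references (5.36 endothelial, 6.71 microglial) throughout. Layer 5 neurons had 14.9 CPM but a library range of 4.63 to 21.4. In the other classes the level was at or near those readings, and it was lowest in upper-layer (2.36) and Rorb cortical neurons (1.70), from 82 and 42 UMIs.

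Cacng8, the principal TARP of the hippocampus, was highest in hippocampal pyramidal neurons at 176 CPM [168 to 183] (lowest 160.2, median 175, highest 187), followed by dentate granule neurons (124; lowest 90.1, median 118, highest 149) and Lhx6 interneurons (86.4). Each of these 3 exceeded the next class in 6 libraries. A broad group with no fixed order lay between 57.8 and 72.5 CPM. It comprised layer 6, striatal, upper-layer and layer 5 neurons, neuroblasts, caudal interneurons, dividing progenitors, astrocytes (61.6) and OPCs (57.8). OPCs and astrocytes thus lay close to several neuronal classes for this gene, above the 22.6 of endothelial and 29.1 of microglial nuclei in 6 libraries. Thalamic neurons (23.8), immature oligodendrocytes (25.9) and mature oligodendrocytes (11.5, the lowest class) were not above both readings throughout.

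**Figure D2:**
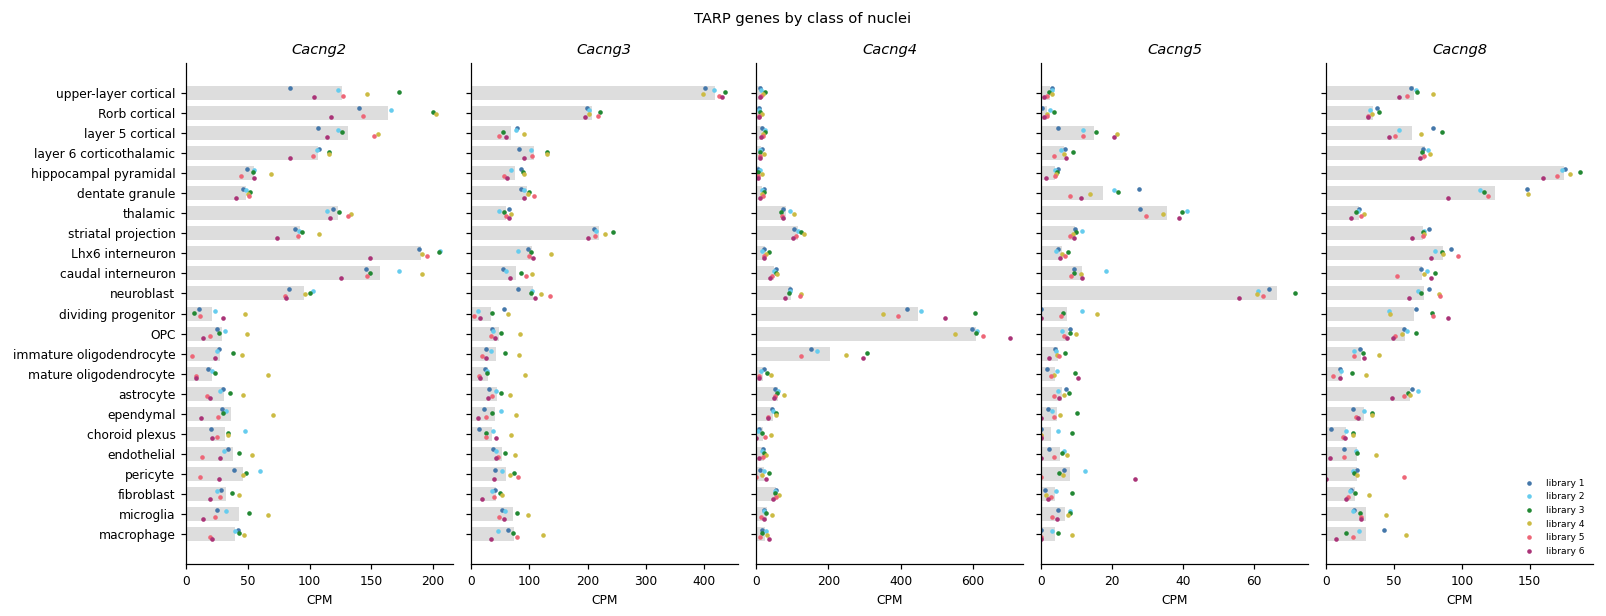
Levels of the 5 TARP genes in the 23 classes, in CPM on a linear axis that starts at 0, with a bar for the value summed over libraries and 1 coloured dot per library. The peak class differed for each gene, with Cacng2 in Lhx6 interneurons (191 CPM), Cacng3 in upper-layer cortical neurons (418), Cacng4 in OPCs (608), Cacng5 in neuroblasts (66.6) and Cacng8 in hippocampal pyramidal neurons (176).

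To describe differences between classes by 1 measure, the log2 ratio of the summed levels was taken. A gene was called higher or lower where the sums differed at least 2-fold and all 6 libraries gave the same direction. Since a library can be of either genotype, a call means that the direction held in every library whichever its genotype, and no p-value was computed. The share of all measured genes that the same rule called is given beside each count of members.

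Between OPCs and immature oligodendrocytes, a pair of TARP genes differed. Cacng4 and Cacng8 were lower in the immature cells, 2 of 9 members against 5.38% of 11947 genes, and none was called higher (background 4.44%). Cacng4 had 206 against 608 CPM, a log2 ratio of -1.56 [-1.65 to -1.48] with -1.97, -1.87, -0.99, -1.15, -2.35 and -1.25 in libraries 1 to 6. Libraries 1, 2 and 5 had the lower ratios, and no library lay between -1.87 and -1.25, the stretch that holds the summed ratio. The same 3 libraries had the higher shares of mature oligodendrocytes given above (3.69% to 4.27%, against 0.951% to 1.24% in the others), and the part of this in the ratio was not tested. Cacng8 had 25.9 against 57.8 CPM (-1.16 [-1.41 to -0.92]), with -1.21, -1.52, -1.28, -0.52, -1.31 and -0.81 in libraries 1 to 6. With the nuclei of highest doublet score kept, Cacng4 was the only one called. Gria2 was higher in the immature cells in all 6 libraries without reaching 2-fold, at a log2 ratio of 0.36 (libraries 0.25 to 0.57). Gria4 was level at 0.00, and Gria1 (-0.64) and Gria3 (-0.63) were both lower in 6 of 6 libraries. The median over the members was -0.63, against -0.05 over all genes tested.

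In mature oligodendrocytes 6 of 9 members were lower than in OPCs, all 4 Gria genes and both Cacng4 and Cacng8, against a background of 14.3%, and none was higher (8.81%). For Gria2 the mature cells had 447, 498, 593, 819, 319 and 301 CPM in libraries 1 to 6, below the OPC value of every library, with a log2 ratio of -1.64 [-1.69 to -1.59]. Gria1 (-1.18, libraries -2.06 to -0.34), Gria3 (-1.89, libraries -2.76 to -0.80) and Gria4 (-1.41, libraries -1.69 to -0.98) followed the same direction. The calls of Gria1 and Gria4 were lost with doublet-scored nuclei kept, that of Gria1 also under TMM scaling. Cacng4 had 20.8, 13.9, 31.1, 41.9, 8.39 and 7.79 CPM in the mature cells and a log2 ratio of -5.07 [-5.29 to -4.85], and Cacng8 one of -2.32. The median over members was -1.41 against -0.24 over all genes. Since the mature level of each member was near or below the endothelial reading, how much of it arose in these cells was not tested. Library 4 was highest for mature Gria1 at 477 CPM, against 172 over all libraries, as it was in the endothelial nuclei. Between the mature clusters, 30 over 16, no member was called (background 3.14% higher and 5.28% lower).

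**Figure D3:**
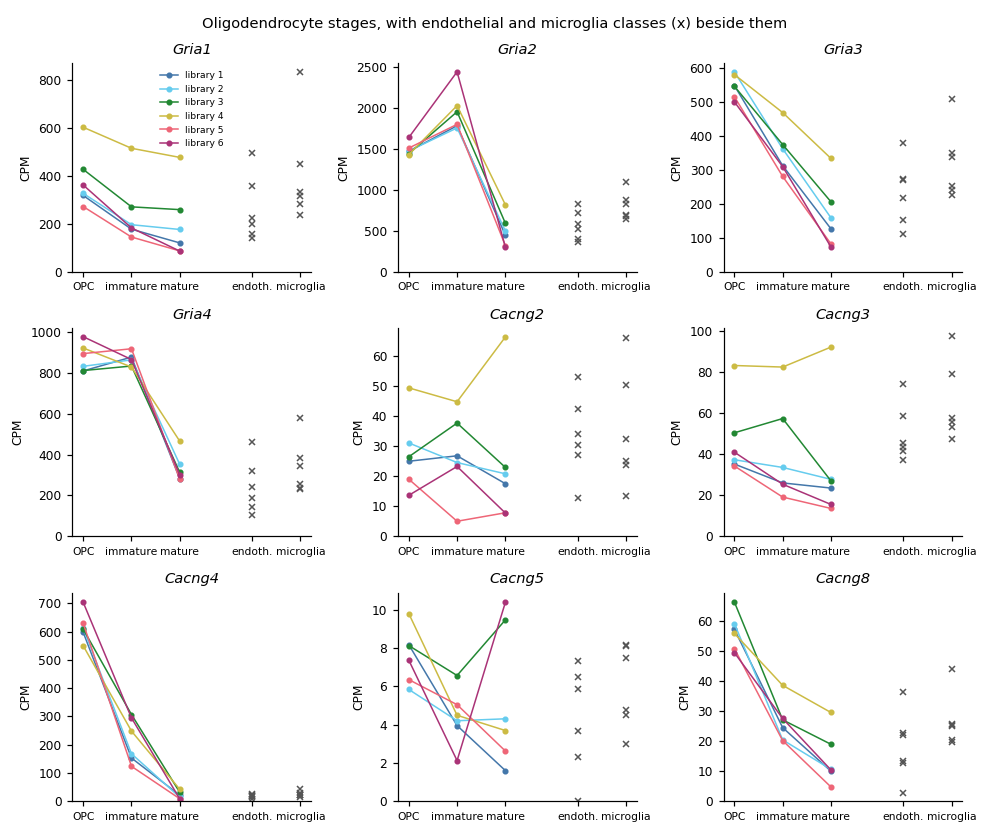
Levels of the 9 members along the oligodendrocyte lineage (OPC, immature, mature), in CPM on a linear axis that starts at 0, with 1 coloured line per library and crosses for the libraries of endothelial and microglial nuclei. Cacng4 was at 608, 206 and 18.2 CPM in the 3 stages, while Gria2 was at 1479, 1898 and 475.

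OPCs and astrocytes, both glia with AMPA receptors, had Gria2 at like levels and differed in Gria3, Gria4 and Cacng4. Gria3 (log2 ratio 1.26 [1.21 to 1.31]), Gria4 (1.81 [1.77 to 1.86]) and Cacng4 (3.36 [3.28 to 3.43]) were higher in OPCs, 3 of 9 members where the background was 5.98%, and none was lower (10.3%). Gria4 had 809, 831, 811, 921, 894 and 976 CPM in the OPCs of libraries 1 to 6 and 163, 238, 270.0, 426, 147 and 144 in the astrocytes, with no overlap. Gria2 had a log2 ratio of 0.06 and Cacng8 one of -0.09. For Gria1 the ratio was -0.44, but the astrocyte clusters were not alike in this gene. Cluster 12, 2052 nuclei, had 963 CPM (library range 700.4 to 1095) and cluster 1, 6006 nuclei, 373 (216 to 547). The log2 ratio between them was 1.37 [1.32 to 1.42], and Gria1 was the only member called, where the background was 1.06% higher and 1.33% lower. Of the pair, cluster 12 alone was above microglia for Gria1 in 6 libraries.

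Cortical interneurons (the Lhx6 and caudal classes, which may include those of other forebrain regions) differed from cortical excitatory neurons (4 classes) in 4 of 9 members. Gria1 was higher, at 2224 against 754 CPM and a log2 ratio of 1.56 [1.54 to 1.58], as were Cacng4 (1.35) and Cacng5 (1.05), 3 members where the background was 8.02%. Cacng3 was lower, at 94.9 against 264 CPM (-1.47 [-1.53 to -1.41]), where the background was 5.84%. The excitatory classes were not alike, with Cacng3 at 418 CPM in upper-layer, 207 in Rorb, 108 in layer 6 and 68.2 in layer 5 neurons. By summed levels, layer 6 neurons were near Lhx6 interneurons (104), and layer 5 neurons were below both Lhx6 and caudal interneurons (77.4). Both Cacng4 (33.2 against 13.1 CPM) and Cacng5 (7.68 against 3.72 CPM) were scarce in the interneurons and the excitatory neurons. The summed excitatory levels were below the endothelial and microglial readings of Cacng4 (20.3 and 28.7) and Cacng5 (5.36 and 6.71). Lhx6 interneurons, at 24.3 CPM of Cacng4 and 5.71 of Cacng5, lay between those readings. Caudal interneurons had 50.5 and 11.5 CPM. Among the excitatory classes, layer 5 neurons had 19.2 CPM of Cacng4, less than 2-fold below Lhx6 interneurons. Their 14.9 CPM of Cacng5 was above both interneuron classes by summed level. Layer 6 neurons, at 6.43 CPM of Cacng5, were above Lhx6 interneurons by summed level. Cacng5 was close to the limit, and its call was lost without library 2, without library 5 and under 6 of 7 other alternatives. With a finer clustering (resolution 2.0) Gria1 was the only one of the 3 called. Gria4 had a log2 ratio of 0.86, higher in 6 of 6 libraries, and Gria2 one of -0.46, lower in 6, both below the 2-fold limit.

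Striatal projection neurons, set against the same cortical excitatory neurons, were higher in Gria1 (log2 ratio 1.18 [1.16 to 1.19]), Cacng4 (3.15 [3.05 to 3.24]) and Cacng5 (1.37), 3 of 9 members where the background was 6.6%, and lower in none (8.06%). Cacng4 was at 116 CPM in striatal and 13.1 in cortical excitatory neurons, 8.86-fold apart. For Gria1 and Cacng5 the 2-fold difference did not hold against each cortical class. Gria1 was at 1704 CPM in striatal and 931 in upper-layer neurons, less than 2-fold apart. Cacng5 was at 9.57 CPM in striatal neurons, against 6.43 in layer 6 and 14.9 in layer 5 neurons, the latter being higher in the sum. Under every alternative Cacng4 remained called. The call of Gria1 was lost with a coarser clustering (resolution 0.5) and with the receptor genes kept in the clustering. That of Cacng5 was lost at resolution 0.5, at resolution 2.0 and with at least 2000 UMIs per nucleus. The remaining members had log2 ratios between -0.61 (Gria4) and 0.31 (Cacng8).

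Thalamic neurons, against the same cortical neurons again, departed from them in 6 of 9 members. Cacng5 (35.4 against 3.72 CPM, log2 ratio 3.25 [3.04 to 3.46]) and Cacng4 (2.66 [2.54 to 2.78]) were higher, where the background was 8.17%. Gria2 (-1.07 [-1.11 to -1.04]), Gria3 (-1.20), Cacng3 (-2.13) and Cacng8 (-1.28) were lower, 4 members where the background was 7.09%. For Gria3 and Cacng3 this did not hold against each cortical class. Gria3 was at 382 CPM in thalamic neurons, level with Rorb (387) and layer 5 neurons (385). Cacng3 was at 60.1 CPM in thalamic and 68.2 in layer 5 neurons, the latter above the former in 3 of 6 libraries. For Gria2 the fold was 2.11 and the library ratios ran from -1.21 to -0.85, close to the limit of the rule. By single classes, thalamic Gria2 (617 CPM) was less than 2-fold below Rorb (1200) and layer 5 neurons (1150). Thalamic Cacng8 (23.8 CPM) was likewise less than 2-fold below Rorb neurons (34.1). Gria4 was higher in 6 of 6 libraries at 0.58, short of 2-fold. The median over members was -0.84, against 0.12 over all genes. The 3 comparisons with cortical excitatory neurons share their denominator, so they are not independent of one another.

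Dentate granule neurons, compared with upper-layer cortical neurons, differed in the levels of 6 members by at least 2-fold. Gria1 (1.65 [1.62 to 1.68]) and Cacng5 (2.88) were higher, 2 of 9 members where the background was 8.31%. Gria3 (-1.17), Gria4 (-1.21), Cacng2 (-1.39) and Cacng3 (-2.14 [-2.26 to -2.02]) were lower, 4 members where the background was 6.2%. The upper-layer level of Cacng5 (2.36 CPM) was below the endothelial (5.36) and microglial (6.71) readings. The dentate levels of Gria4 (321 CPM) and Cacng2 (48.2 CPM) were not above both readings in every library. Under the alternatives Cacng3 kept its call throughout, while Gria3, Gria4 and Cacng2 each lost it under 1 of them. For Cacng8 the log2 ratio was 0.94, just under the limit, and positive in 6 libraries.

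Neuroblasts, against cortical interneurons, were higher in Cacng5 (66.6 against 7.68 CPM, log2 ratio 3.12 [2.87 to 3.36]) and Cacng4 (97.1 against 33.2 CPM, 1.55 [1.40 to 1.69]), 2 of 9 members where the background was 5.72%, and lower in none (5.5%). Gria1 to Gria4 had log2 ratios of -0.37, 0.45, -0.68 and -0.71. Without library 3, which held 5.83% neuroblasts against at most 2.28% elsewhere, Gria3 and Gria4 were called lower.

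**Figure D4:**
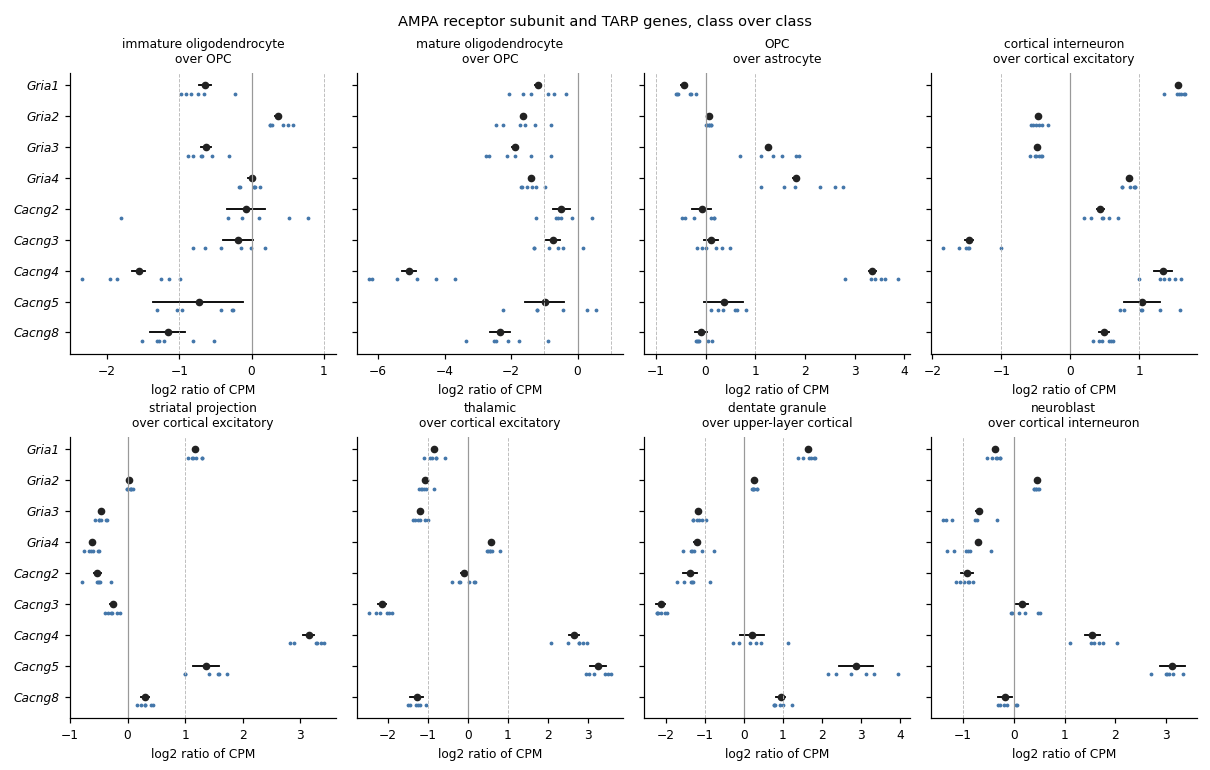
Log2 ratios of the 9 members in the 8 comparisons between classes, with a black dot and its counting interval for the ratio of the summed levels, small blue dots for the libraries and dashed lines at the 2-fold limits. Cacng4 ran from -5.07 in mature oligodendrocytes over OPCs to 3.36 in OPCs over astrocytes, while Gria2 stayed between -1.64 and 0.45.

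Some classes could be divided further, a choice made after the clusters were seen. The striatal class held 5273 nuclei and the Lhx6 interneuron class 1970. Many of these lay in parts that the markers did not name, and those parts are left out of the D2 and D1 and the Sst and Pvalb comparisons. A striatal part left out, of 549 nuclei, had 279 CPM of Drd2. D2 striatal neurons (1243 nuclei), those of the indirect pathway, had 15.5 CPM of Cacng5 and D1 neurons (1676 nuclei), those of the direct pathway, 3.88. The log2 ratio was 1.99 [1.52 to 2.49] in the same direction in 6 libraries, where the rule called 0.741% of genes higher and 0.644% lower. The D1 level was below the endothelial (5.36) and microglial (6.71) readings. Gria4 was at 541 CPM in D2 and 707 in D1 neurons, less in D2 in 6 libraries but under 2-fold. Gria1 was alike in the pair (1685 and 1676 CPM).

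Sst interneurons (503 nuclei) were higher than Pvalb interneurons (477 nuclei) in Cacng3, Cacng4 and Cacng8, where the background was 4.46% higher and 3.51% lower. Cacng3 was at 178 against 46.4 CPM (log2 ratio 1.94 [1.70 to 2.18]), Cacng4 at 38.3 against 13.7 (1.48 [1.03 to 1.96]) and Cacng8 at 141 against 53.5 (1.40 [1.17 to 1.63]). The Pvalb levels of Cacng3 and Cacng4 were below the endothelial (53.0 and 20.3) and microglial (72.6 and 28.7) readings. Gria1 (0.71) and Cacng2 (-0.78) differed by less than 2-fold in opposite directions, with Cacng2 at 149 CPM in Sst and 256 in Pvalb interneurons. Cacng5 had too few UMIs for the rule.

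The hippocampal pyramidal class was made of clusters 23 and 27, which differed in Cacng2 and Cacng3 in opposite directions. Cacng2 was at 97.3 CPM in cluster 27 (461 nuclei) and 27.7 in cluster 23 (838 nuclei), a log2 ratio of 1.81 [1.58 to 2.05], where the background was 3.2%. Cacng3 was at 34.1 and 102 CPM (-1.58 [-1.83 to -1.35]), where it was 3.48%. Gria1 and Cacng8, the genes for which this class was highest, were within 2-fold between the clusters, at -0.19 and -0.36 on the log2 scale.

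**Figure D5:**
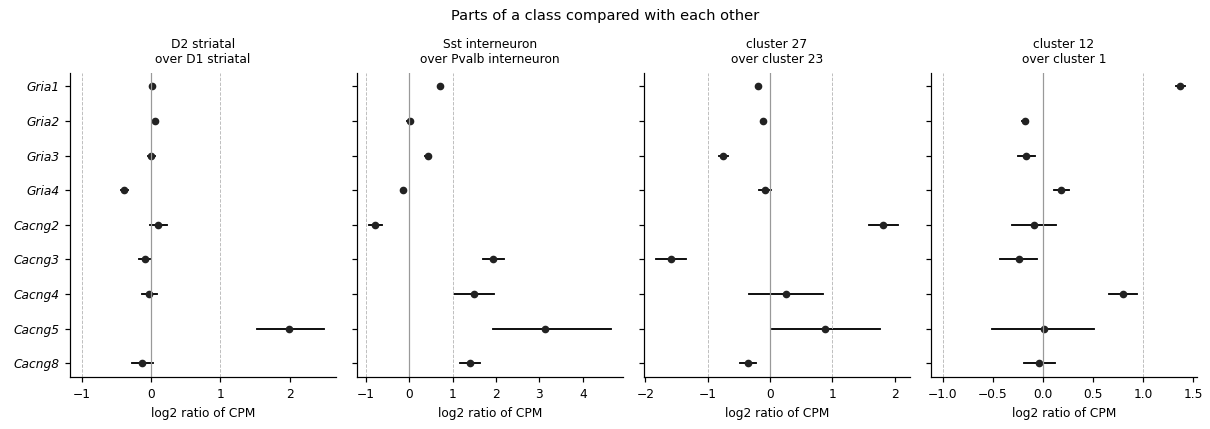
Log2 ratios of the 9 members between the parts of a class (D2 over D1 striatal neurons, Sst over Pvalb interneurons, hippocampal cluster 27 over 23, astrocyte cluster 12 over 1), with a black dot for the ratio of the summed levels, a bar for its 95% counting interval and dashed lines at the 2-fold limits. Cacng5 was at 1.99 in the first pair, Cacng3 at 1.94 in the second and -1.58 in the third, and Gria1 at 1.37 in the last, while Cacng5 in the second rests on under 100 UMIs.

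The make-up of the receptor genes within a class was described by the share of 1 gene in the UMIs of its family, which is followed from class to class because gene length affects the share itself. Gria2 made up 58.5% [58.1% to 58.8%] of the UMIs of the 4 Gria genes in astrocytes and 56.4% [55.7% to 57.0%] in immature oligodendrocytes, but 21.8% [21.4% to 22.2%] in thalamic neurons, 15.1% [14.8% to 15.3%] in Lhx6 interneurons and 13.9% [13.5% to 14.3%] in Sst interneurons. The same share was 42.4% in endothelial and 41.2% in microglial nuclei. The library ranges were 49.1% to 69.2% in astrocytes and 14.2% to 16.6% in Lhx6 interneurons, which did not overlap. Gria4 made up 49.8% in thalamic neurons and 5.01% in hippocampal pyramidal ones. Of the UMIs of the 5 TARP genes, Cacng4 held 81.0% [80.2% to 81.8%] in OPCs, 14.5% in endothelial and 15.9% in microglial nuclei and 2.23% in Rorb cortical neurons. Elsewhere Cacng3 held 66.8% in upper-layer neurons, Cacng8 55.2% in hippocampal pyramidal neurons and Cacng2 68.9% in Pvalb interneurons. Cacng5 held 15.2% in neuroblasts and 10.9% in thalamic neurons.

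The share of nuclei with at least 1 UMI was compared after each nucleus was thinned to 2000 UMIs, which left out 432 of 3352 OPCs, 399 of 2813 endothelial and 962 of 2679 microglial nuclei, among others. Cacng4 was seen in 64.8% [63.0% to 66.5%] of OPCs, 27.8% [25.5% to 30.1%] of immature oligodendrocytes, 3.85% of endothelial and 4.89% of microglial nuclei (exact binomial intervals). Before thinning these shares were 76.5%, 39.9%, 6.15% and 6.46%, at median depths of 3139.5, 3734.5, 3038 and 2307 UMIs. Cacng4 was therefore present in most OPCs and above the reading of other cells. Cacng3 was seen in 53.2% [51.6% to 54.8%] of upper-layer neurons, Cacng8 in 29.8% [27.3% to 32.4%] of hippocampal pyramidal neurons and Cacng5 in 13.2% [11.5% to 15.1%] of neuroblasts, against 9.98%, 4.52% and 0.953% of endothelial nuclei. Gria2 was seen in 95.3% of immature oligodendrocytes, 70.2% of thalamic neurons and 78.2% of microglia after thinning. Before thinning the thalamic share was 97.4% at a median of 9087 UMIs, against 78.7% of microglial and 82.5% of endothelial nuclei at their lower depths, so the order of these shares depended on depth and none is read from them.

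Other genes that act with AMPA receptors were described by lists. Of the RNA editing enzymes (3 genes), Adarb1, which edits the Gria2 Q/R site, was highest in thalamic neurons, the neurons lowest in Gria2, at 542 CPM (library range 513 to 593), against 39.4 to 245 in the 22 other classes. Against cortical excitatory neurons its log2 ratio was 2.12, and Adarb2, whose product is not known to edit and which served as a caudal interneuron marker, was also higher (4.75). The second type II TARP, Cacng7, differed from Cacng5 in its classes, with its highest level in immature oligodendrocytes (88.9 CPM), then Lhx6 interneurons (84.1) and OPCs (76.6), against 15.3 in endothelial nuclei. Cacng1 and Cacng6, gamma subunits without a TARP role, did not reach 100 UMIs in any comparison.

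Among the 7 other auxiliary subunits of AMPA receptors, 6 were tested along the oligodendrocyte lineage and 3 were lower in mature oligodendrocytes than in OPCs, none higher (background 14.3% lower and 8.81% higher). Shisa6 (26.0 against 186 CPM, log2 ratio -2.84) and Shisa9 (54.3 against 242 CPM, log2 ratio -2.16) encode proteins of the CKAMP family, and Gsg1l (9.82 against 26.6 CPM, log2 ratio -1.44) an inhibitory auxiliary subunit. In dentate granule neurons 4 of 6 tested were higher than in upper-layer neurons and 1 lower (background 8.31% and 6.2%). The 2 largest were Shisa6 (504 against 40.0 CPM, log2 ratio 3.66) and Cnih3 (157 against 29.4 CPM, log2 ratio 2.41), a cornichon that slows channel closing, and the lower one was Gsg1l (34.8 against 115 CPM, log2 ratio -1.73).

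Genes of receptor biogenesis and of synaptic scaffolds were also followed along the lineage. Of 9 genes of receptor biogenesis, 3 were lower in mature oligodendrocytes than in OPCs and none higher (background 14.3% and 8.81%), the largest being Olfm2 (21.1 against 248 CPM, log2 ratio -3.55). Of 16 scaffold and trafficking genes tested, 6 were lower and 1 higher against the same background, with Lrrtm4 (725 against 3993 CPM, log2 ratio -2.46), a synaptic adhesion protein, as the largest.

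Of the 5 kainate receptor subunits, 3 were higher in OPCs than in astrocytes and none lower (background 5.98% and 10.3%). They were Grik3 (168 against 25.6 CPM, log2 ratio 2.72), Grik4 (324 against 63.2 CPM, log2 ratio 2.36) and Grik1 (342 against 82.9 CPM, log2 ratio 2.04). Of the NMDA receptor subunits, 6 of 7 were tested. Against that background 1 was higher (Grin3a, 450.1 against 173 CPM, log2 ratio 1.38) and 1 lower (Grin2c, 5.87 against 153 CPM, log2 ratio -4.70). In cortical interneurons over excitatory neurons, 2 of 5 kainate subunits were higher, among them Grik1 (1392 against 152 CPM, log2 ratio 3.20), and of 17 scaffold and trafficking genes 2 were higher and 3 lower, where the background was 8.02% higher and 5.84% lower, so that the 2 higher ones are near the share of all genes. The largest of those was Grip1 (4141 against 404 CPM, log2 ratio 3.36), whose product binds the tail of GRIA2 and GRIA3. In thalamic neurons 3 of 6 tested NMDA subunits were higher and 1 lower than in cortical excitatory neurons (background 8.17% and 7.09%), with Grin2c (39.9 against 2.07 CPM, log2 ratio 4.27) as the largest of the former and Grin2a (766 against 2055 CPM, log2 ratio -1.42) as the latter.

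The genes whose pattern over the 23 classes was most like that of a member were found by Pearson correlation of log2(CPM + 1) among 11906 genes, the members themselves left out, as a description without a test, since classes share libraries and depth. Among the members the closest pair was Gria1 and Cacng8 (r = 0.87). For Gria1 they were Dgkg (r = 0.89), St6galnac5 (r = 0.87) and Enox1 (r = 0.87). Gria2 was closest to Nlgn1 (r = 0.87), Acp1 (r = 0.83) and Nrcam (r = 0.81). Gria3 had Syt16 (r = 0.86), Slc2a3 (r = 0.85) and Rbfox1 (r = 0.83), and Gria4 had Fgf12 (r = 0.86), Cntn6 (r = 0.86) and Tmem169 (r = 0.84). Nlgn1 and Nrcam, beside Gria2, encode adhesion proteins of synapses and axons. Cacng2 was most like Rian (r = 0.93), Meg3 (r = 0.92) and Syt1 (r = 0.92), of which the first 2 are non-coding RNAs of neurons. Cacng3 was closest to Dlgap3 (r = 0.90), Rab15 (r = 0.89) and Dmtn (r = 0.89), and Cacng8 to Dok6 (r = 0.88), Hectd2 (r = 0.88) and Dab1 (r = 0.87). For Cacng5 the list was Ablim3 (r = 0.81), Adamts19 (r = 0.80) and Glra2 (r = 0.79). Cacng4 was closest to Lhfpl3 (r = 0.89), Bahcc1 (r = 0.86) and Vcan (r = 0.86). Lhfpl3 and Vcan are markers that were used to name the OPC class.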

How the data were processed

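Nuclei of frozen forebrain from 3 WT and 3 Npc1-/- mice were sequenced with the 10x Genomics 3′ droplet method. The authors deposited 1 matrix of integer UMI counts, not normalized, of 32285 genes by 75878 barcodes, and its header names cellranger 6.0.0. The submitters' processing notes list Cell Ranger 2.1.1 and the mm10 build, while the study's methods describe alignment with STARsolo, removal of empty droplets and doublets, and imputation. Neither imputed values nor cell labels were used here. The annotation release and any use of intronic reads for the deposited counts were not given in the sources used here. Since nuclear RNA is largely unspliced, counting of introns would favour long genes.

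Libraries were taken from the barcode suffix, and 631 barcode sequences of 16 bases occur with more than 1 suffix. Barcodes at or above 10% mitochondrial UMIs were removed, as were those of highest score against simulated doublets (0.8% per 1000 nuclei of a library). Each nucleus was brought to a total of 10000 and put on a log scale, after which 3000 variable genes, 30 principal components and 20 neighbours gave Leiden clusters at resolution 1 (leidenalg 0.10.2, igraph 0.11.9, Python 3.11.15). Glutamate receptor and auxiliary genes were kept out of the clustering. Clusters were named from fixed markers, with limits that were set after the clusters were seen (a marker score of at least 1, at least 100 nuclei and at least 3 detected markers). The clusters divided further were likewise chosen afterwards. The cluster that the rule gave to D2 striatal neurons is called striatal projection, and that given to Pvalb interneurons is called Lhx6 interneuron, because each also held the other type.

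UMIs were summed per class and library. A ratio was called at 2-fold or more with the same sign in 6 libraries, among genes with at least 100 UMIs over both classes. Ratios within a library had 0.5 UMIs added. With libraries that are not keyed to mice or genotypes, no test was run. The calculation was tested on simulated counts. Members, lists and contrasts were chosen with earlier results of these data known. All 9 members are named, up to 4 genes of each other list by size of ratio, and the 3 genes of highest correlation to each member among those with at least 1000 UMIs, leaving out the members and genes named Gm with a number or ending in Rik. Alternatives were a fine and a coarse clustering, doublets kept, receptor genes kept in the clustering, TMM scaling (edgeR 4.0.16, R 4.3.3), medians over libraries, a minimum of 2000 UMIs and each library left out.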

Additional observations from a re-analysis of the deposited data

Results flagged for a closer look

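In each set of 6 library values the lowest and the highest were compared with their neighbours by Dixon's ratio, over 81 sets, and 2 stood apart, where chance alone flags about 1 set in 20. The log2 ratio of Gria1 in cortical interneurons over cortical excitatory neurons was 1.36 in library 4, against 1.56 to 1.66 in the other 5 libraries (Dixon's ratio 0.648). In all 6 libraries Gria1 was more than 2-fold higher in the interneurons. Library 4 also had the highest Gria1 level in endothelial (493 CPM) and microglial nuclei (833 CPM), and the part of this in the ratio was not tested.

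Cacng5 over all nuclei of a library was at 12.7 CPM in library 3, against 7.15 to 9.03 in the others (Dixon's ratio 0.664). Neuroblasts, the class highest for Cacng5, made up 5.83% of the nuclei of library 3 and 1.32% to 2.28% of those of the other libraries, and their own Cacng5 level was 71.6 CPM there against 66.6 over all libraries. The part of the neuroblast share in this value was not tested.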

How the results depend on the processing

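No paired analysis was possible because the replicate numbers of the mice are not tied to libraries. The classes themselves were compared within each library. None of the ratios of a called member changed its sign under any alternative. The count of members called moved by over 1.5 times in 6 cases. With nuclei of highest doublet score kept, 1 member was lower in immature oligodendrocytes than in OPCs (Cacng4) in place of 2. At resolution 2.0, 1 was higher in cortical interneurons than in excitatory neurons (Gria1) in place of 3, and at resolution 0.5, which gave no layer 5 or caudal interneuron class, 1 was higher in striatal neurons (Cacng4) in place of 3. It was 2 in the latter comparison at resolution 2.0 and with at least 2000 UMIs (Cacng5 lost) and with receptor genes kept in the clustering (Gria1 lost). With a coarse clustering or with receptor genes kept in the clustering, Gria1 was also lower in thalamic neurons, making 5 in place of 4. Neuroblasts over cortical interneurons had 0 lower members, but 1 at resolution 2.0 and 1 under TMM scaling (Cacng2 in both), and 0 to 2 with each library left out (2 without library 3, Gria3 and Gria4). In mature oligodendrocytes over OPCs the 6 lower members were 4 with doublets kept (Gria1 and Gria4 lost), 5 under TMM scaling (Gria1 lost) and 6 without cluster 30, an alternative added after seeing the data, as was leaving cluster 12 out of the astrocytes, after which 3 members were still higher in OPCs. For TMM scaling, the log2 ratio of the scaling factors, first class over second, was -0.24 (mature oligodendrocytes), 0.15 (interneurons), 0.11 (thalamic), 0.24 (dentate) and 0.18 (neuroblasts). It was under 0.1 in size in the other 3. Levels are divided by these factors, so all log2 ratios of a comparison moved by the same amount in the opposite direction. Single ratios of members stayed within the counting interval of the summed ratio in 302 of 522 cases under the alternatives. With a library left out this held in 370 of 432 cases. That interval is mostly narrower than the spread over libraries, so a ratio outside it need not have moved beyond that spread. Without the minimum of 100 UMIs the background was 2.75% to 9.52% over the 8 comparisons and both directions. It moved by over 1.5 times for genes higher in immature (2.75% in place of 4.44%) and mature oligodendrocytes (5.38% in place of 8.81%), and for genes lower in the latter it was 9.52% in place of 14.3%. Depth limits Cacng5 most, whose class sums were as low as 4 UMIs.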

Other observations

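Of the clusters that no marker list named, several held AMPA receptor genes above the readings of endothelial and microglial nuclei. Cluster 0, 7844 nuclei with a median of 1946 UMIs and with mitochondrial genes, Mbp and Fth1 among its leading genes, had 769 CPM of Gria1, 1279.6 of Gria2, 591 of Gria3 and 655 of Gria4, each above both in all 6 libraries, while all nuclei together had 1071, 1198, 588 and 850.3. Its Cacng3 level was 126 CPM. Cluster 11, 2367 nuclei, had 1423 CPM of Gria4, 1038 of Gria1 and 197 of Cacng3, again above both references in 6 libraries, and 12.4 of Cacng4, below microglia in 5. Cluster 34, 200 nuclei, had the highest Gria2 level of all 41 clusters, 2339.5 CPM (library range 2021 to 2727), and 409.7 CPM of Cacng3 (260.3 to 551).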
